A study of Mus musculus with 11 samples.

Results

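The MYC, MAX and MXD network was followed across CD8 T cells of the mouse spleen through 9 genes, Myc, Max, Mxd1, Mxd3, Mxd4, Mxi1, Mnt, Mlx and Mga. They were chosen by name, as the core of a known transcription factor network, with earlier results of these data known. They are 9 of the 52636 genes in the deposited count table. Bulk RNA was sequenced from 4 libraries of CD45RBhi NP396+ memory cells, 4 of CD45RBlo NP396+ memory cells and 3 of naive cells, all from C57BL/6 mice. The memory cells came from mice given 200000 plaque-forming units of LCMV Armstrong intraperitoneally and were sorted on days 42 to 45 with a Kb NP396 tetramer, which holds a viral nucleoprotein peptide, and by the level of the surface protein CD45RB. The naive cells were CD44lo CD8 cells. Their labels give a time entry of 6 to 8 weeks, without saying whether it is an age, and repeat the infection protocol, so whether these mice were infected was not established. The labels give a sort purity above 99% and do not say whether replicates came from separate or pooled animals. P-values therefore measure the spread among these libraries, which may be technical.

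MYC is a basic helix-loop-helix leucine zipper protein that binds DNA only as a dimer with MAX, mostly at the E-box CACGTG, and drives genes of ribosome production, nucleotide and polyamine synthesis and metabolism. MXD1, MXD3, MXD4, MXI1 and MNT compete for MAX and for the same sites and recruit SIN3 and histone deacetylase corepressors, so the balance of MYC to these antagonists sets the output of shared targets. In T cells, receptor stimulation induces Myc within hours, and the protein is needed for the growth and metabolic switch that precedes division.

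The network's own promoters were searched for the site that its proteins bind. RefSeq windows of GRCm38.p6, from 250 bases before to 50 after a transcript start, were held for 8 of the 9 members, in 10 windows. Myc had no window and is left out of this search. The palindrome CACGTG, which reads the same on both strands, was found in 4 of the 10 windows (40.0%), those of Max, Mxd4, Mnt and Mlx. Over all 32851 promoter windows 2349 held it (7.15%). The 60 bases around each match are printed to show where the letters lie, on the gene's strand with the E-box in capitals. The match begins 3 bases before the start in Max, 219 before in Mxd4, 123 before in Mnt and 40 before in Mlx.
Max, chr12:76962219-76962278, minus strand: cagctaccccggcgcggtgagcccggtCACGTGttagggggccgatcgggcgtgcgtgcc
Mxd4, chr5:34187897-34187956, minus strand: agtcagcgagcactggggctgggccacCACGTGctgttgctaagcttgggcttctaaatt
Mnt, chr11:74830774-74830833, plus strand: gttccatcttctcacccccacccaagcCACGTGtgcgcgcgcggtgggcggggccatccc
Mlx, chr11:101087223-101087282, plus strand: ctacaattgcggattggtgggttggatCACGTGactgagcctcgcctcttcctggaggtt
The windows of Mxd1, Mxd3, Mxi1 and Mga did not hold these 6 letters, and a match is a description of the sequence, not evidence of binding in these cells. Of the 4 genes with a match, Mxd4 was called in a comparison below, and Max when 1 pair of libraries was left out. Of those with a window and no match, Mxd1 and Mxi1 were called, and Mga under some alternatives. Myc, which had no window, was called in both memory groups against naive cells. Against naive cells 41.5% of all genes were called in CD45RBhi and 42.2% in CD45RBlo cells.

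The libraries held 18024793 to 23151297 counts, and all 9 members passed the filter on low counts that left 13735 genes. A count of 3, taken as the floor, corresponded to 0.130 to 0.166 counts per 1000000 (CPM). Of the 15 pairs of libraries within a group, 0 were identical. The 7 CD8 T cell markers summed to 7293 to 8024 CPM in CD45RBhi, 6751 to 7811 in CD45RBlo and 6565 to 7047 in naive libraries. The Cd4 and regulatory T cell markers summed to 2.21 to 4.53 CPM, mostly Cd40lg. Among them Foxp3, which defines regulatory T cells, was called lower in both memory groups, at 0 counts in every CD45RBhi library and 0 or 1 in CD45RBlo libraries, against 16 to 30 in naive libraries. Cd44 encodes the marker by which the naive cells were labelled CD44lo. It averaged 256 ± 57.4 CPM in CD45RBhi and 220 ± 38.7 CPM in CD45RBlo libraries, against 14.6 ± 2.87 CPM in naive libraries (SD, n = 4, 4 and 3). Ptprc, which encodes CD45, averaged 2981 ± 222, 2976 ± 189 and 2627 ± 26.8 CPM in CD45RBhi, CD45RBlo and naive libraries and did not pass the test in any comparison. Gene-level counts do not separate the CD45RB isoform used in the sort. Markers of other spleen cells differed between the groups. The 8 B cell markers summed to 10.8 to 23.2 CPM in CD45RBhi, 14.2 to 23.8 in CD45RBlo and 51.8 to 58.7 in naive libraries. The 6 erythroid markers summed to 0.304 to 1.57, 0.242 to 25.0 and 234 to 520 CPM in the same order, and the 9 myeloid markers to 34.7 to 41.7, 30.7 to 45.5 and 30.5 to 52.1 CPM. Within the B cell and myeloid lists, markers moved in opposite directions. Of 7 B cell markers tested 1 rose and 5 fell in CD45RBhi and 1 rose and 6 fell in CD45RBlo libraries against naive libraries, the 1 being Cd22, at 7.93 and 13.9 CPM against 1.88 CPM. Of 6 myeloid markers tested 2 rose and 4 fell in each memory group. Cd68 averaged 31.8 and 27.5 CPM in CD45RBhi and CD45RBlo libraries against 3.65 CPM in naive libraries, and Itgam also rose. Lyz2 averaged 0.517 and 1.04 CPM against 17.3 CPM, and Csf1r, Adgre1 and Fcgr3 also fell. One or more of these markers were at 0 counts in a memory group, namely 1 B cell marker in each, 1 erythroid marker in CD45RBhi, and 2 myeloid markers in CD45RBhi and 1 in CD45RBlo. The part of these cells in the differences from naive libraries was not tested.

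The libraries CD45RBhi 2, CD45RBlo 2 and naive 1 were the lowest of their groups in Max, and results that rest on them are given with and without them. They were picked after their values were seen. Replicate numbers are not explained in the labels, but memory libraries with the same number deviated together, so CD45RBhi was also compared with CD45RBlo within numbered pairs. The 2 memory groups share the naive libraries as their comparison, so their differences from naive are not independent of each other.

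Myc (ENSMUSG00000022346, chromosome 15, 61985391 to 61990374, plus strand) fell in both memory populations and lay lowest in CD45RBlo cells. The 4 CD45RBhi libraries held 129, 184, 130 and 151 CPM, the 4 CD45RBlo libraries 66.2, 126, 74.9 and 91.7 CPM, and the 3 naive libraries 275, 279 and 261 CPM. Every memory library lay below every naive library, and the lowest CD45RBhi library lay just above the highest CD45RBlo library. Means were 148 ± 25.8, 89.8 ± 26.5 and 272 ± 9.05 CPM (SD, n = 4, 4 and 3). In CD45RBhi cells Myc was 1.83-fold lower than in naive cells, a log2 fold change of −0.87 ± 0.187 (SE; 95% interval −1.28 to −0.47; edgeR adjusted p = 0.00235). In CD45RBlo cells it was 3.02-fold lower, a log2 fold change of −1.60 ± 0.189 (adjusted p = 2.08e-05). Since these are bulk samples, fewer cells that express Myc and less Myc RNA in each cell cannot be told apart. Leaving out the 3 libraries lowest in Max gave −0.98 (adjusted p = 2e-04) and −1.80 (adjusted p = 2.2e-06). Against a change of 1.5-fold in place of none, the call was lost in CD45RBhi cells (adjusted p = 0.109) and kept in CD45RBlo cells (adjusted p = 0.000231).

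Between the memory populations, Myc was higher in CD45RBhi cells in all 4 pairs. The log2 ratios were 0.96, 0.54, 0.79 and 0.72 in pairs 1 to 4, so the smallest ratio came from the pair in which both libraries held the most Myc. The paired estimate was 0.75 ± 0.0706 (SE; 95% interval 0.60 to 0.90), a 1.68-fold difference (edgeR adjusted p = 0.000245). The fit without pairs gave the same size, 0.72 ± 0.177, with an adjusted p of 0.216. With each pair left out in turn the paired estimate stayed between 0.69 and 0.82, with adjusted p from 3.58e-05 to 0.00641. After a correction for gene length and GC content it was 0.80 (limma adjusted p = 2.59e-05).

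**Figure D1:**
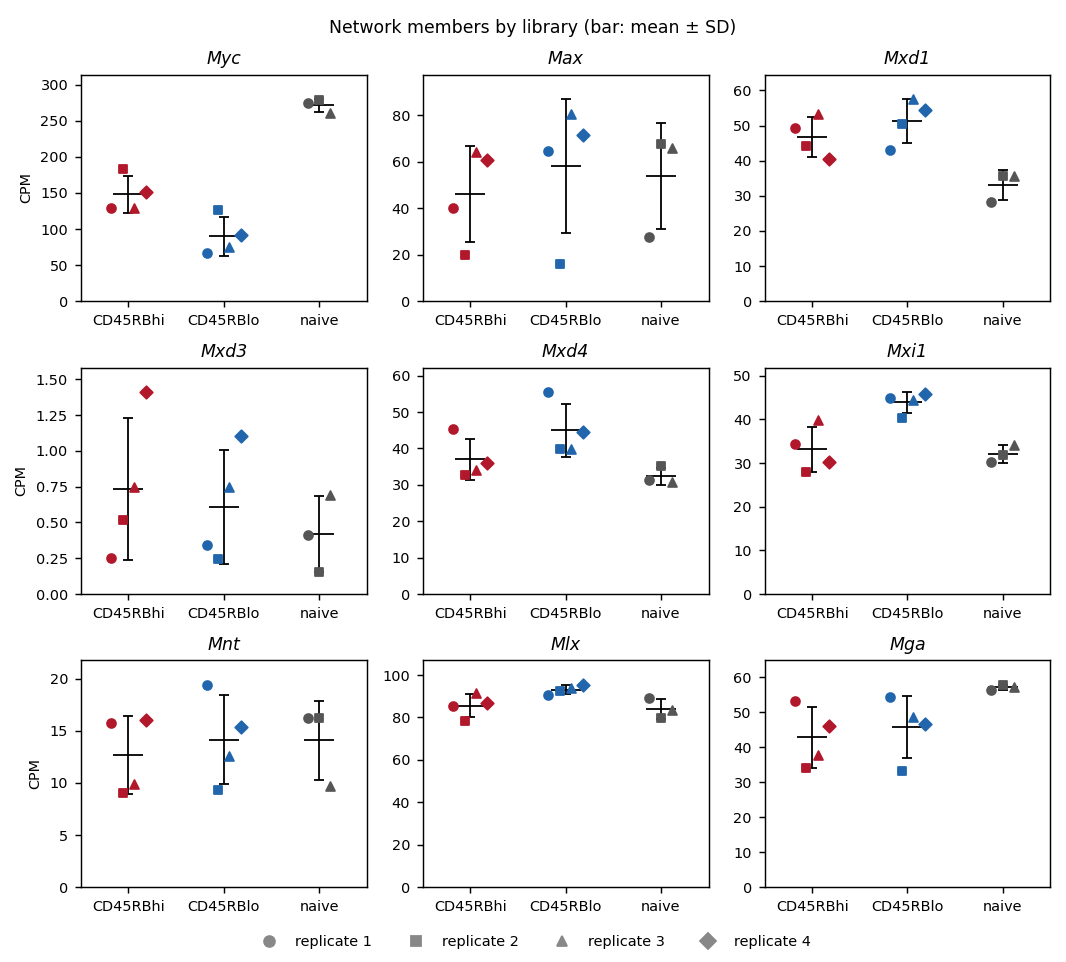
CPM of each member in each library, by group, with the mean and SD as bars and the marker shape giving the replicate number. All 8 memory libraries lie below the 3 naive libraries in Myc, and Max is lowest in CD45RBlo 2 at 15.9 CPM and CD45RBhi 2 at 19.7 CPM.

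Max (ENSMUSG00000059436, chromosome 12, 76937269 to 76962201, minus strand), the shared partner of MYC, the MXD proteins, MNT and MGA, varied more within groups than between them. CD45RBhi libraries held 39.9, 19.7, 64.3 and 60.8 CPM, CD45RBlo libraries 64.7, 15.9, 80.4 and 71.5 CPM, and naive libraries 27.7, 67.8 and 65.9 CPM. The 2 memory libraries numbered 2 and naive 1 were the low ones, and the 3 groups overlapped throughout. Means were 46.2 ± 20.7, 58.1 ± 28.9 and 53.8 ± 22.6 CPM in CD45RBhi, CD45RBlo and naive cells. The log2 difference from naive was −0.22 ± 0.499 in CD45RBhi cells (95% interval −1.30 to 0.86; edgeR adjusted p = 0.756) and 0.11 ± 0.500 in CD45RBlo cells (−0.97 to 1.20; adjusted p = 0.879). These intervals are wide enough that a change of 1.5-fold in either direction was not detectable. Without CD45RBhi 2 the CD45RBhi difference was 0.03, and without naive 1 the CD45RBlo difference was −0.20, so neither sign held. With all 3 low libraries left out the differences were −0.28 (adjusted p = 0.25) and 0.11 (adjusted p = 0.659).

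In the pairs, Max had log2 ratios of −0.70, 0.31, −0.32 and −0.23 for CD45RBhi over CD45RBlo. Pair 2, with the 2 lowest memory libraries, was the only one above 0. The paired estimate was −0.26 ± 0.121 (95% interval −0.52 to 0.00; edgeR adjusted p = 0.237). Without pair 2 it was −0.41 and passed the test (adjusted p = 0.0207), so pair 2 decided whether Max was called. In both memory populations the library numbered 2 held the most Myc and the least Max.

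The spread of Max was set against that of other genes. Its within-group SD was 0.90 on the log2 scale, and 31 of the 8402 genes averaging at least 10 CPM had an SD that large or larger, where the median SD was 0.17. The 5 genes whose deviations from the group means were most like those of Max over the 11 libraries were Elf2, Psap, Eml2, Vdac1 and Prpf19, with Pearson's r of 0.992, 0.982, 0.980, 0.977 and 0.968. These 5 were picked after the spread of Max was seen, and points that share a library are not independent. Elf2, an ETS family transcription factor, held 86.2, 60.0, 116 and 104 CPM in CD45RBhi, 123, 64.6, 140 and 132 in CD45RBlo and 68.6, 122 and 116 in naive libraries. Its low libraries were those of Max, which follows from how it was picked. The libraries' deviations over 13714 genes correlated with log gene length at −0.177 in CD45RBhi 2, −0.145 in CD45RBlo 2 and 0.0772 in naive 1, and with GC content at 0.0457, 0.0796 and 0.0220. Other libraries had correlations with length as far from 0, such as −0.181 in naive 3 and 0.152 in CD45RBhi 1. The cause of the low Max values was not tested.

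**Figure D2:**
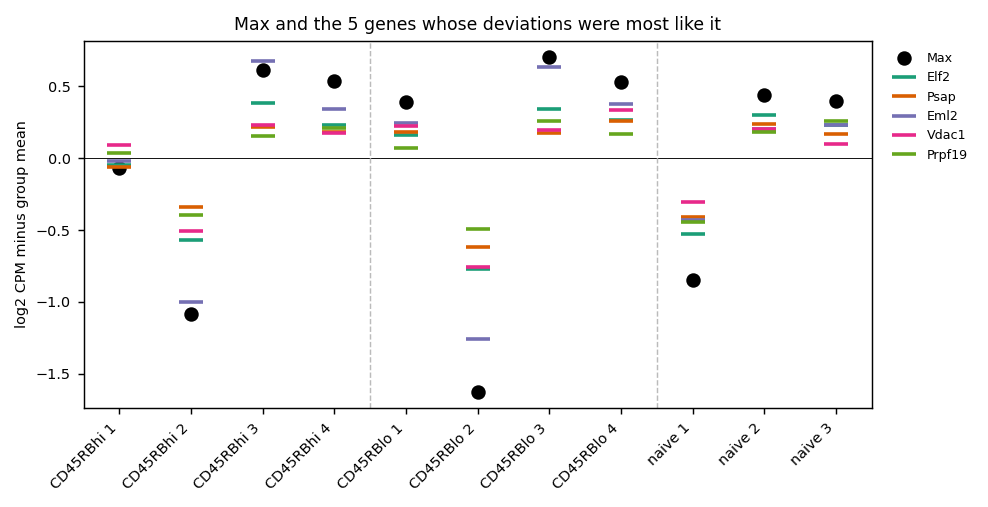
Deviation of log2 CPM from the group mean in each of the 11 libraries for Max (black points) and the 5 genes whose deviations were most like it (coloured bars). The 5 genes were picked for this likeness; Max and all 5 lie below their group mean in CD45RBhi 2, CD45RBlo 2 and naive 1; in the other libraries except CD45RBhi 1 they lie above it.

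Among the antagonists, 3 were called higher in CD45RBlo cells and 1 in CD45RBhi cells against naive cells, beside 22.4% and 22.3% of all genes. Mxd1, Mxd4 and Mxi1, which encode repressors that take MAX away from MYC, rose in CD45RBlo cells relative to naive cells, and Mxd1 also rose in CD45RBhi cells. Mxd1 (ENSMUSG00000001156, chromosome 6, 86647042 to 86669161, minus strand), which is linked to the arrest and maturation of many cell types, held 49.2, 44.3, 53.2 and 40.4 CPM in CD45RBhi, 43.0, 50.3, 57.5 and 54.5 in CD45RBlo and 28.2, 35.5 and 35.6 in naive libraries. All 8 memory libraries lay above all 3 naive libraries, and the memory groups overlapped. Its log2 fold change against naive was 0.50 ± 0.135 in CD45RBhi cells (edgeR adjusted p = 0.01) and 0.63 ± 0.136 in CD45RBlo cells (adjusted p = 0.00224). The CD45RBhi call rested on naive 1, the lowest naive library, and was lost without it (0.40, adjusted p = 0.0562). It was also lost when libraries were scaled by size only (0.35, adjusted p = 0.0636). Between the memory groups the paired estimate was −0.13 ± 0.0934 (adjusted p = 0.448).

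Mxi1 (ENSMUSG00000025025, chromosome 19, 53310518 to 53375810, plus strand), also named Mxd2, held 34.5, 28.0, 39.8 and 30.2 CPM in CD45RBhi, 44.8, 40.4, 44.5 and 45.9 in CD45RBlo and 30.1, 31.8 and 34.2 in naive libraries. The CD45RBlo libraries lay above every other library, while CD45RBhi and naive libraries overlapped. Mxi1 rose by 0.45 ± 0.123 on the log2 scale in CD45RBlo cells relative to naive cells (edgeR adjusted p = 0.00967). In CD45RBhi cells the difference was 0.05 ± 0.122 (adjusted p = 0.786). In the pairs it was lower in CD45RBhi than in CD45RBlo cells in 4 of 4, with log2 ratios of −0.38, −0.53, −0.16 and −0.60. The paired estimate was −0.41 ± 0.0890 (adjusted p = 0.02). The call was lost without pair 1 (−0.42, adjusted p = 0.0698) or pair 4 (−0.35, adjusted p = 0.0915) and was not made without pairing (adjusted p = 0.27).

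Mxd4 (ENSMUSG00000037235, chromosome 5, 34173883 to 34187720, minus strand), an antagonist typical of differentiated and resting cells, held 45.3, 32.8, 34.1 and 35.9 CPM in CD45RBhi, 55.6, 39.8, 40.0 and 44.4 in CD45RBlo and 31.4, 35.1 and 30.8 in naive libraries. CD45RBlo libraries all lay above the naive ones, and CD45RBhi libraries overlapped both other groups. Its log2 fold change against naive was 0.47 ± 0.145 in CD45RBlo cells (edgeR adjusted p = 0.0198) and 0.19 ± 0.145 in CD45RBhi cells (adjusted p = 0.317). The CD45RBlo call was lost without naive 1 (adjusted p = 0.0655), naive 3 (0.0725) or CD45RBlo 1 (0.0524), and with scaling by library size only (0.0638). In the pairs the log2 ratios were −0.30, −0.28, −0.23 and −0.31, nearly equal. The paired estimate was −0.28 ± 0.0743 (adjusted p = 0.0499), just under the threshold, and it was not called with any pair left out (adjusted p from 0.0846 to 0.149) or by limma (0.0502).

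Mxd3 (ENSMUSG00000021485, chromosome 13, 55325168 to 55329823, minus strand), the member of the MXD family known for expression in dividing cells, was close to the detection floor. Its counts were 5, 12, 15 and 27 in CD45RBhi, 6, 5, 14 and 24 in CD45RBlo and 9, 3 and 14 in naive libraries. The groups overlapped. Log2 differences from naive were 0.78 ± 0.690 in CD45RBhi cells (edgeR adjusted p = 0.393) and 0.54 ± 0.695 in CD45RBlo cells (adjusted p = 0.57), and the paired estimate was 0.27 ± 0.428 (adjusted p = 0.764). The 10 cell cycle markers summed to 41.8 to 127 CPM in CD45RBhi, 26.2 to 74.2 in CD45RBlo and 11.5 to 18.3 in naive libraries. Of these markers 9 rose and 0 fell in CD45RBhi cells, 6 rose and 0 fell in CD45RBlo cells relative to naive cells, and 5 were higher and 0 lower in CD45RBhi than in CD45RBlo cells within pairs. In the same 3 comparisons 41.5%, 42.2% and 5.59% of all genes were called in either direction. The library with most Mxd3 counts in each memory group, numbered 4, also had the highest marker sum of its group. The other libraries did not all follow this order. CD45RBhi 1 had 5 counts at a sum of 84.5 CPM, and CD45RBhi 2 had 12 counts at 41.8 CPM. CD45RBlo 1, 3 and 4 had nearly equal sums of 73.0, 72.6 and 74.2 CPM, with 6, 14 and 24 counts. Mxd3 shares 105 exon bases (4.4%) with Prelid1 on the other strand, which had 3483 to 5873 counts, and the strand setting of the counting is not given, so its low counts are uncertain.

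Mnt (ENSMUSG00000000282, chromosome 11, 74830920 to 74845725, plus strand), the most widely expressed antagonist in mammals, averaged 12.7 ± 3.74 CPM in CD45RBhi, 14.2 ± 4.28 in CD45RBlo and 14.1 ± 3.77 in naive cells. Libraries ranged from 9.03 to 16.0, 9.35 to 19.4 and 9.75 to 16.3 CPM, so the groups overlapped throughout. Log2 differences from naive were −0.15 ± 0.282 (95% interval −0.77 to 0.46; edgeR adjusted p = 0.696) in CD45RBhi and 0.01 ± 0.282 (−0.61 to 0.62; adjusted p = 0.989) in CD45RBlo cells. The paired estimate was −0.15 ± 0.124 (adjusted p = 0.512). Its within-group SD of 0.43 was equalled or exceeded by 392 of the 8402 genes, second to Max among members above 10 CPM.

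**Figure D3:**
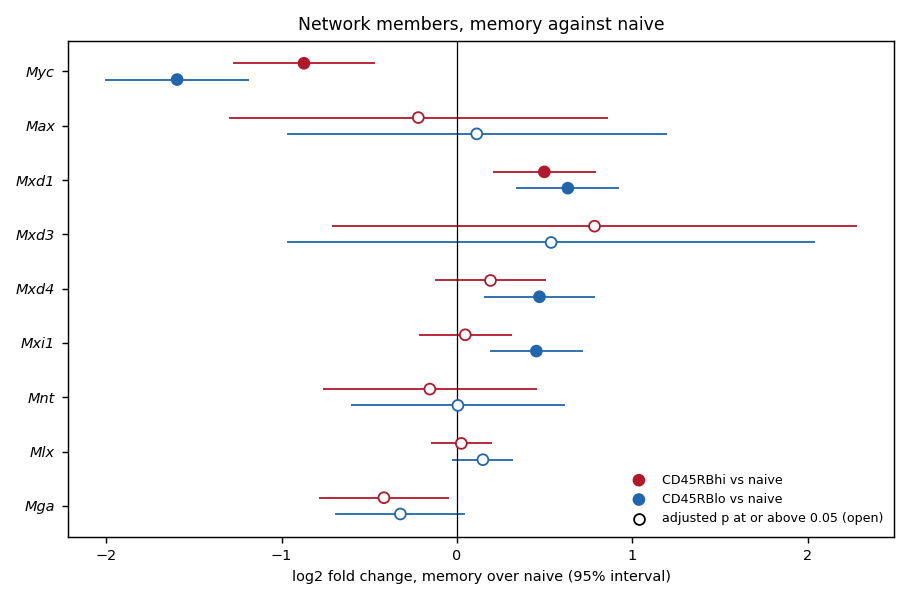
Log2 fold change of each member in CD45RBhi (red) and CD45RBlo (blue) cells against naive cells with its 95% interval; open points did not pass an adjusted p of 0.05. Myc lies at −0.87 and −1.60, and Max has intervals from −1.30 to 0.86 and from −0.97 to 1.20.

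Mlx and Mga stand at the edges of the network. Mlx (ENSMUSG00000017801, chromosome 11, 101087277 to 101092207, plus strand) is a MAX-like protein that pairs with MondoA and ChREBP, the glucose sensing factors, and also with MXD1, MXD4 and MNT. It held 85.6, 78.2, 91.4 and 86.9 CPM in CD45RBhi, 90.7, 92.5, 94.0 and 95.4 in CD45RBlo and 89.1, 79.7 and 83.4 in naive libraries. CD45RBlo libraries lay just above the naive ones and CD45RBhi libraries overlapped both. Its within-group SD of 0.07 was the smallest of the 9 members. Log2 differences from naive were 0.02 ± 0.0801 (edgeR adjusted p = 0.829) in CD45RBhi and 0.15 ± 0.0803 (adjusted p = 0.16) in CD45RBlo cells, and the paired estimate was −0.12 ± 0.0634 (adjusted p = 0.282). Mlx shares 385 exon bases (19.3%) with Psmc3ip on the other strand, which had 55 to 131 counts, against 1537 to 2072 for Mlx.

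Mga (ENSMUSG00000033943, chromosome 2, 119897228 to 119969581, plus strand) encodes a large protein with a T-box as well as the MAX-binding region, which anchors the Polycomb complex PRC1.6. It held 53.4, 34.0, 37.9 and 46.1 CPM in CD45RBhi, 54.3, 33.3, 48.6 and 46.7 in CD45RBlo and 56.3, 57.8 and 57.4 in naive libraries. All memory libraries lay below the tight naive group, and again the memory libraries numbered 2 were the lowest. The log2 differences from naive were −0.42 ± 0.171 in CD45RBhi (edgeR adjusted p = 0.0683) and −0.32 ± 0.171 in CD45RBlo cells (adjusted p = 0.151), so neither passed the test. The CD45RBhi difference was called under several alternatives, such as DESeq2 (−0.43, adjusted p = 0.0432), scaling by library size only (−0.57, adjusted p = 0.0131), and without CD45RBhi 1 (−0.54, adjusted p = 0.0208) or CD45RBlo 2 (−0.42, adjusted p = 0.0305). With the 3 libraries lowest in Max left out it was −0.33 (adjusted p = 0.0906). The paired estimate was −0.09 ± 0.0847 (adjusted p = 0.582).

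Counted over the network, 2 of 9 members (22.2%) passed the test in CD45RBhi cells against naive cells, where 41.5% of all 13735 genes did. Mxd1 was the 1 that rose, against 22.3% of all genes higher, and Myc the 1 that fell, against 19.1% lower. In CD45RBlo cells 4 of 9 (44.4%) passed, against 42.2% of all genes. Mxd1, Mxd4 and Mxi1 rose (22.4% of all genes higher) and Myc fell (19.8% lower). The median member lay at 0.02 in CD45RBhi and 0.15 in CD45RBlo cells on the log2 scale, beside −0.01 for all genes in both. The share of members called was thus near or below the background. Scaled by library size only, the median of all genes moved to −0.16 and −0.14 and the calls over all genes split into 2301 higher and 3724 lower in CD45RBhi and 2356 and 3609 in CD45RBlo cells, in place of 3064 and 2630, and 3072 and 2722. With the 3 libraries lowest in Max left out, Mxd1 differed from naive by 0.42 in CD45RBhi cells and was not called (adjusted p = 0.053), while in CD45RBlo cells Mxd1, Mxd4 and Mxi1 were called at 0.54, 0.50 and 0.45 (adjusted p = 0.0185, 0.0379 and 0.0191). Scaled by library size only, the rises of Mxd4 and Mxi1 in CD45RBlo cells were not called (adjusted p = 0.0638 and 0.0517), and Mga was lower in CD45RBlo cells (−0.46, adjusted p = 0.0364).

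Between CD45RBhi and CD45RBlo cells 0 of 9 members passed without pairing, where 17 genes (0.124%) did and 1236 had an unadjusted p under 0.05. Under DESeq2 the count was 1 of 9, Myc. Within pairs 3 of 9 (33.3%) passed, against 5.59% of 12637 genes. With pairs 1, 2, 3 and 4 left out in turn, 1, 3, 2 and 1 members and 344, 667, 167 and 300 genes were called, in place of 707 genes. Myc was higher in CD45RBhi cells, where 2.52% of all genes were higher, and Mxd4 and Mxi1 were lower, where 3.08% were lower. The median member lay at −0.13, beside −0.01 for all genes. After the correction for gene length and GC content, under which the calls over all genes split into 518 higher and 279 lower rather than 331 and 427, Myc and Mxi1 were called and Mxd4 was not.

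**Figure D4:**
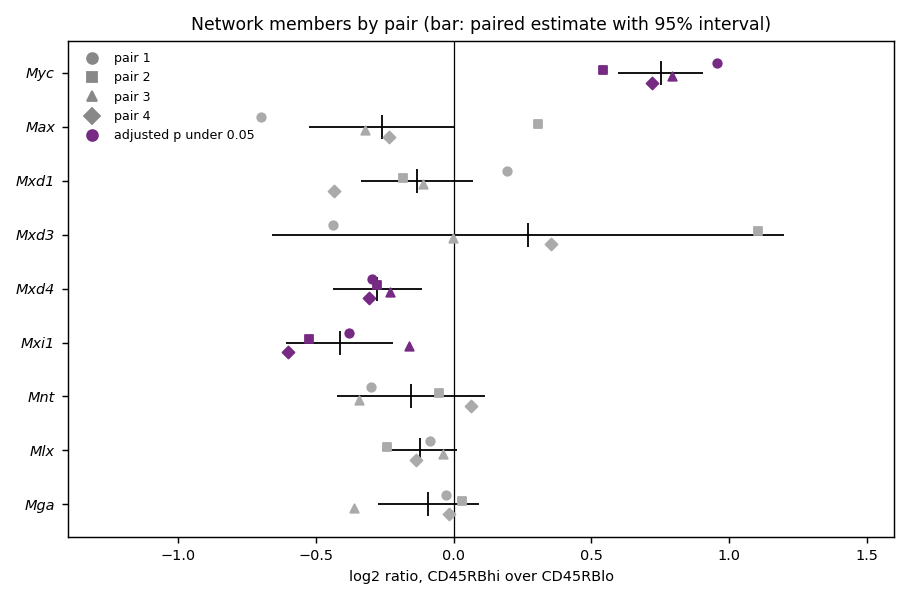
Log2 ratio of CD45RBhi over CD45RBlo for each member in each of the 4 numbered pairs (points), with the paired edgeR estimate and its 95% interval (bar); purple marks an adjusted p under 0.05. Myc lies above 0 in every pair at 0.54 to 0.96, and Mxi1 and Mxd4 lie below 0 in every pair.

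Levels of different genes were compared as CPM per kilobase of exon. Myc was the highest member in CD45RBhi and naive cells, at 54.6 ± 9.50 and 99.9 ± 3.33 CPM per kilobase, while in CD45RBlo cells it averaged 33.0 ± 9.76, below Mlx at 46.6 ± 1.00. Mlx had 42.8 ± 2.75 in CD45RBhi and 42.1 ± 2.37 in naive cells. Max followed with 12.8, 16.2 and 14.9 in CD45RBhi, CD45RBlo and naive cells, with SDs of 5.75 to 8.02. The antagonists stood well below, with Mxd1 at 6.61, 7.26 and 4.68, Mxi1 at 4.86, 6.43 and 4.70, and Mxd4 at 4.36, 5.30 and 3.82. Mga had 2.79, 2.98 and 3.73, Mnt 2.74, 3.06 and 3.05, and Mxd3 0.309, 0.257 and 0.177. Some members lie within their SDs of each other in every group. Examples are Mxi1 and Mxd4 in CD45RBhi, Mga and Mnt in CD45RBhi and CD45RBlo, and Mxd1 and Mxi1 in naive cells. In CD45RBlo 2, Myc at 46.5 CPM per kilobase stood just above Mlx at 46.3. With the length of the longest transcript in place of the exon union, the naive level of Max was 27.7 and that of Mxd1 7.10, and Mxd4 at 7.01 stood above Mxi1 at 6.36.

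The 9 members together summed to 132 ± 4.98, 121 ± 5.49 and 177 ± 4.94 CPM per kilobase in CD45RBhi, CD45RBlo and naive cells. Myc made up 41.4 ± 7.14% of that sum in CD45RBhi (35.7 to 51.7%), 27.3 ± 8.11% in CD45RBlo (21.2 to 39.0%) and 56.5 ± 1.92% in naive cells (54.7 to 58.5%). The sum of the 4 MXD family genes and Mnt was 18.9 ± 1.93, 22.3 ± 1.72 and 16.4 ± 0.867 CPM per kilobase in the same order. Myc stood at 2.95 ± 0.844 times this sum in CD45RBhi libraries (2.27 to 4.12), at 1.51 ± 0.577 times in CD45RBlo libraries (1.04 to 2.34) and at 6.09 ± 0.270 times in naive libraries (5.89 to 6.40). Each memory library had a lower ratio of Myc to antagonist RNA than each naive library, and the 2 memory groups overlapped through CD45RBlo 2. These ratios use the exon union, and their size depends on the length used. With the length of the longest transcript, Myc lay below the antagonist sum in CD45RBlo 1 and CD45RBlo 3. It lay above that sum in every other library. The ratio of RNA levels is given as a description and says nothing of the proteins.

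**Figure D5:**
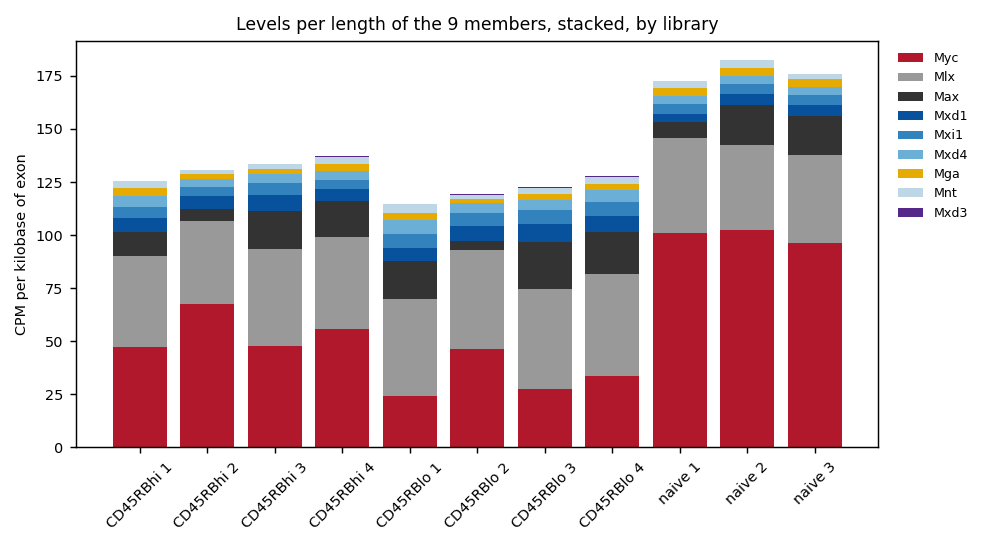
CPM per kilobase of exon of the 9 members stacked in each library, in the order of the legend from the bottom. The red Myc part is 35.7 to 51.7% of the stack in CD45RBhi and 21.2 to 39.0% in CD45RBlo libraries, against 54.7 to 58.5% in naive libraries.

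The wider network was mostly at very low counts or not called. Mycn, the paralog of neural and early progenitor cells, had 0 counts in every CD45RBhi and naive library and at most 1 in a CD45RBlo library. Mycl, a paralog expressed in dendritic cells, had 0 counts in CD45RBhi libraries, 0 to 2 in CD45RBlo libraries and 2 to 12 in naive libraries, and was not tested. Mlxip, which encodes MondoA, averaged 80.9 ± 14.0, 76.8 ± 15.6 and 89.8 ± 4.59 CPM in CD45RBhi, CD45RBlo and naive cells and passed in no comparison, while Mlxipl, which encodes ChREBP, had at most 7 counts in any library. Of the 6 other E-box binding proteins of the extended network that were tested, Mlxip among them, 0 rose and 1 fell in CD45RBhi cells (16.7%, beside 41.5% of all genes) and 0 rose and 2 fell in CD45RBlo cells (33.3%, beside 42.2%) against naive cells. Scaled by library size only, 3 fell in CD45RBhi cells, and 2 were called there by DESeq2. Tfap4, a MYC target that prolongs the proliferative program of activated CD8 T cells, averaged 2.93 ± 1.16, 2.47 ± 0.343 and 6.23 ± 1.78 CPM, with log2 fold changes of −1.09 ± 0.319 (edgeR adjusted p = 0.0151) and −1.33 ± 0.321 (adjusted p = 0.00488). Usf2 fell in CD45RBlo cells (−0.64 ± 0.191, adjusted p = 0.0173), and its difference in CD45RBhi cells was −0.50 ± 0.191 (adjusted p = 0.0527). Within pairs 0 of the 6 passed.

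Few cofactors through which MYC works on chromatin passed the test. Of 18 tested, 0 rose and 2 fell in each memory population against naive cells (11.1%, beside 41.5% and 42.2% of all genes). Within pairs 0 passed, and 2 were higher in CD45RBhi cells after the correction for gene length and GC content. The 2 that fell against naive were Kat2a, an acetyltransferase, at 90.9 ± 6.72, 87.7 ± 8.24 and 126 ± 10.7 CPM in CD45RBhi, CD45RBlo and naive cells (log2 fold changes −0.47 and −0.52), and Bptf, the reader subunit of the NURF remodeller, at 59.5 ± 5.46, 55.2 ± 10.8 and 81.0 ± 4.18 CPM (−0.44 and −0.55). The list's median log2 fold change was −0.11 in CD45RBhi and −0.08 in CD45RBlo cells, beside −0.01 for all genes. Trrap, the scaffold of MYC's acetyltransferase complexes, averaged 58.0 ± 8.31 CPM in CD45RBhi and 69.1 ± 8.55 CPM in naive cells (−0.25, adjusted p = 0.143).

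Of 19 SIN3 and histone deacetylase subunits tested, which the MXD proteins recruit, 3 rose and 3 fell in CD45RBhi cells (31.6%, beside 41.5% of all genes) and 4 rose and 3 fell in CD45RBlo cells (36.8%, beside 42.2%) against naive cells, with medians of −0.06 and −0.03. Hdac2, a catalytic subunit, averaged 122 ± 6.21, 116 ± 5.53 and 173 ± 10.5 CPM in CD45RBhi, CD45RBlo and naive cells, with log2 fold changes of −0.50 ± 0.0772 and −0.57 ± 0.0772. Sap30, a SIN3 complex subunit, averaged 11.9 ± 1.72, 12.6 ± 0.934 and 5.13 ± 1.59 CPM, rising by 1.21 and 1.30 on the log2 scale. Arid4a, a chromatin-binding SIN3 subunit, fell in both (−0.31 ± 0.0773, edgeR adjusted p = 0.00619, and −0.33 ± 0.0773, adjusted p = 0.00369). Suds3, another subunit, rose in both (0.23 ± 0.0769, adjusted p = 0.0311, and 0.40 ± 0.0771, adjusted p = 0.000964). Within pairs 0 of 19 passed. Scaled by library size only, the list had 1 higher and 6 lower in CD45RBhi cells and 2 higher and 4 lower in CD45RBlo cells, so its balance depended on the scaling.

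Of 14 partners of MGA in PRC1.6 tested, 1 rose and 3 fell in CD45RBhi cells (28.6%, beside 41.5% of all genes) and 1 rose and 4 fell in CD45RBlo cells (35.7%, beside 42.2%) against naive cells, with medians of 0.01 in both, and 0 passed within pairs. L3mbtl2, the reader subunit of the complex, rose by 0.47 ± 0.0970 and 0.50 ± 0.0971 on the log2 scale, at 130 ± 11.8, 133 ± 8.70 and 93.8 ± 8.13 CPM in CD45RBhi, CD45RBlo and naive cells. Hdac2, given above among the histone deacetylase subunits, is also in this list and is among those that fell in both memory populations. Pcgf6, the PCGF subunit that defines PRC1.6, fell in CD45RBlo cells (−0.47 ± 0.133, edgeR adjusted p = 0.0126). Tfdp2, the dimer partner of E2F6, fell in both (−0.74 ± 0.136, adjusted p = 0.000835, and −0.39 ± 0.136, adjusted p = 0.0343). Without naive 1 the list had 2 calls in CD45RBlo cells in place of 5.

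Enzymes that set the stability of the MYC protein included a gene with a large difference. Usp28, a deubiquitinase that removes ubiquitin from MYC and counters FBXW7, averaged 25.5 ± 7.26 CPM in CD45RBhi and 28.0 ± 6.53 CPM in CD45RBlo cells, against 255 ± 10.4 CPM in naive cells. Its log2 fold changes were −3.32 ± 0.225 (edgeR adjusted p = 1.27e-07) and −3.19 ± 0.224 (adjusted p = 1.63e-07). Fbxw7, the ubiquitin ligase subunit that marks MYC for degradation, rose in both, at 54.5 ± 9.69 CPM in CD45RBhi and 62.1 ± 10.6 CPM in CD45RBlo cells, against 32.6 ± 2.23 CPM in naive cells (0.74 ± 0.165, adjusted p = 0.00294, and 0.93 ± 0.166, adjusted p = 0.000589). Huwe1, another ligase that acts on MYC, fell by 0.74 and 0.76 on the log2 scale in CD45RBhi and CD45RBlo cells, and Usp22, a deubiquitinase of the SAGA complex, fell by 0.57 and 0.49. Of 23 tested, 6 rose and 6 fell in CD45RBhi cells (52.2%, beside 41.5% of all genes) and 5 rose and 6 fell in CD45RBlo cells (47.8%, beside 42.2%), with medians of −0.08 and −0.07. Scaled by library size only the counts were 2 and 9, and 3 and 7. Within pairs 0 of 23 passed, and 1 was higher in CD45RBhi cells after the correction for gene length and GC content.

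Growth genes described as activated by MYC fell more often than they rose. The list holds 58 nucleolar, ribosome synthesis and growth genes, recalled from the MYC targets V2 hallmark set, and 56 were tested. In CD45RBhi cells 6 rose and 27 fell against naive cells (58.9% called, beside 41.5% of all genes), and in CD45RBlo cells 4 rose and 34 fell (67.9%, beside 42.2%). The median log2 fold change was −0.33 in CD45RBhi and −0.40 in CD45RBlo cells, beside −0.01 for all genes. Scaled by library size only the counts were 4 and 34 in CD45RBhi cells and 3 and 38 in CD45RBlo cells. Among the promoter windows of the list, 16 of 58, which came from 53 genes, held CACGTG (27.6%, beside 7.15% of all windows). The list was drawn from described MYC targets, so this share is a trait of the list and not a result of these cells. It was not compared between genes that fell and genes that did not.

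The named genes of that list show the range. Srm, which makes spermidine, averaged 57.9 ± 8.48, 41.9 ± 6.25 and 115 ± 5.40 CPM in CD45RBhi, CD45RBlo and naive cells. Its log2 fold changes were −0.99 ± 0.130 and −1.46 ± 0.131. Mybbp1a, a nucleolar protein of ribosome synthesis, averaged 243 ± 21.6, 229 ± 13.4 and 390 ± 3.32 CPM in CD45RBhi, CD45RBlo and naive cells, with log2 fold changes of −0.68 and −0.77. Dusp2, a nuclear phosphatase of MAP kinases, averaged 106 ± 10.4, 137 ± 13.6 and 224 ± 3.19 CPM in the same order (−1.07 ± 0.0965 and −0.71 ± 0.0964). Sord, an enzyme of the polyol pathway, went the other way, at 8.75 ± 1.46, 9.47 ± 1.81 and 2.69 ± 0.199 CPM (1.70 and 1.81).

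Between the memory populations few of these genes passed the test. Of the 56, 2 were higher and 1 lower in CD45RBhi than in CD45RBlo cells within pairs (5.36%, beside 5.59% of all genes). The log2 fold change was positive for 48 of the 56, beside 48.9% of all genes, and the median was 0.13, beside −0.01 for all genes. Srm averaged 57.9 ± 8.48 CPM in CD45RBhi and 41.9 ± 6.25 CPM in CD45RBlo cells (paired log2 difference 0.47 ± 0.0799; edgeR adjusted p = 0.0067), and Npm1, the nucleolar chaperone nucleophosmin, 247 ± 27.6 and 202 ± 18.9 CPM (0.29 ± 0.0521; adjusted p = 0.00969). Dusp2 was lower, at 106 ± 10.4 and 137 ± 13.6 CPM (−0.36 ± 0.0668; adjusted p = 0.0106). After the correction for gene length and GC content 6 were higher and 1 lower past the test. Of the 10 cell cycle markers given beside Mxd3, 5 were also higher in CD45RBhi cells within pairs, and their part in this was not tested.

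Genes described as repressed by MYC mostly rose in memory cells. This list, like the others, was chosen with earlier results of these data known. Its shares are therefore no independent measure of MYC activity. Of 13 tested among 14, 8 rose and 3 fell in CD45RBhi cells (84.6%, beside 41.5% of all genes) and 8 rose and 2 fell in CD45RBlo cells (76.9%, beside 42.2%) against naive cells, with medians of 1.39 and 1.27 on the log2 scale. Itgb2, the beta chain of the integrin LFA-1, averaged 2350.3 ± 28.6, 2610 ± 65.0 and 811 ± 7.77 CPM in CD45RBhi, CD45RBlo and naive cells (1.53 and 1.69). Btg2 and Tob1, which belong to an antiproliferative family linked to T cell quiescence, rose by 2.03 and 1.51 in CD45RBhi cells and by 2.08 and 1.27 in CD45RBlo cells. LFA-1 is also known as a marker of antigen experience in CD8 T cells. Itgal, which encodes its alpha chain, is in the list too. It rose by 1.83 in CD45RBhi and 2.01 in CD45RBlo cells. Other genes of the list went the other way. Ndrg2 had log2 fold changes of −1.69 and −1.29 and Ndrg1 of −1.08 and −1.42 in CD45RBhi and CD45RBlo cells. Btg1 was called lower in CD45RBhi cells (−0.19, edgeR adjusted p = 0.0429). Cdkn1b and Gadd45a were called in neither memory group. Within pairs 0 of 13 passed, beside 5.59% of all genes, and the median was −0.12.

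Genes described as driven by MondoA or ChREBP with MLX differed widely in size of change. Of 9 tested among 10, 4 rose and 1 fell in CD45RBhi cells (55.6%, beside 41.5% of all genes) and 4 rose and 0 fell in CD45RBlo cells (44.4%, beside 42.2%) against naive cells, with medians of 0.07 and 0.13. Txnip, the most direct readout of MondoA, which restrains glucose uptake, averaged 755 ± 172, 787 ± 145 and 717 ± 33.3 CPM in CD45RBhi, CD45RBlo and naive cells, and Arrdc4, its relative, 6.26 ± 1.79, 8.60 ± 5.27 and 11.5 ± 2.06 CPM, and neither passed in any comparison. Bhlhe40, a helix-loop-helix repressor that activated T cells induce, averaged 298 ± 27.7, 404 ± 38.0 and 0.960 ± 0.395 CPM, a log2 fold change of 8.25 and 8.69 against naive cells, and was lower in CD45RBhi than in CD45RBlo cells within pairs (−0.43 ± 0.0543; edgeR adjusted p = 0.00105). The 1 that fell in CD45RBhi cells was Arrdc3, at 38.2 ± 9.41 CPM against 59.1 ± 5.86 CPM in naive cells (−0.63 ± 0.186, edgeR adjusted p = 0.0163). Klf10 rose by 2.11 and 2.26, and Hk2, which encodes hexokinase 2 and is also in the list of growth genes, by 3.03 and 2.99 on the log2 scale.

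Genes whose levels were most like those of Myc were found among the 8394 other genes averaging at least 10 CPM. Over the 11 libraries they were Farsb, Prdx6, C1qbp, Shmt1 and 5830468F06Rik, with Pearson's r of 0.984, 0.980, 0.977, 0.977 and 0.976 in log2 CPM. The libraries form 3 groups, so these values include the difference between groups. Over the 8 memory libraries, with the group means subtracted, they were Pex7, Ripk2, Mrpl19, Psmd6 and Sumf1, with r of 0.992, 0.988, 0.985, 0.985 and 0.983. The 2 sets had no gene in common. All were picked for their likeness to Myc. Over the memory libraries, Myc lay furthest above its group means in CD45RBhi 2 and CD45RBlo 2, by 0.33 and 0.54 on the log2 scale. The likeness was not tested without these libraries.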

How the data were processed

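RNA from 11 libraries of sorted mouse spleen CD8 T cells was measured by sequencing, and the authors deposited raw read counts per gene in 1 table of 52636 genes. Per the submitters' processing notes, featureCounts, SAMtools and DESeq2 were used with mm10 (GRCm38). No source used here names the aligner, the gene annotation used for counting, the strand setting or tool versions. Every column matched a library by its label, and 0 columns were unused.

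Genes were kept by edgeR's filterByExpr with a minimum count of 10, which left 13735 genes and at least 99.9% of the counts of each library. Counts were scaled by TMM (edgeR 4.0.16, R 4.3.3) and fitted in 1 model of 3 group means. Two-sided p-values from the quasi-likelihood test of edgeR were adjusted by Benjamini-Hochberg over all genes tested, and called at 0.05. The biological coefficient of variation was 18.7%. Fold changes are log2 with standard errors from the fit, and CPM are TMM-scaled counts per 1000000. Levels per length use the exon union of GENCODE M21 on GRCm38, which may differ from the annotation used in counting.

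Memory libraries with the same replicate number had correlated deviations from their group means (r 0.191 to 0.452 in all 4 pairs, against −0.331 to 0.0284 between other numbers). The pairing thus comes from the data, not from the labels. A second fit over the 8 memory libraries had the number as a block (12637 genes, coefficient of variation 9.88%).

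The members, the gene lists and the rules for naming genes were chosen with earlier results of these data known. All 9 members are named; of each list, the 3 genes with the smallest p in each comparison among those averaging at least 1 CPM, and some fixed genes, could be named; and the 5 genes most correlated with Myc. The 5 genes most like Max were added after its values were seen. The MYC-repressed genes that fell or were not called were also named after their values were seen. All list entries matched the table by symbol. Alternatives were RLE factors, library size only, no filter, DESeq2 1.42.0, each library or pair left out, a 1.5-fold threshold (glmTreat), and limma 3.58.1 with and without splines of 5 degrees of freedom for gene length and GC content. The tests were tested on simulated data.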

Additional observations from a re-analysis of the deposited data

How the results depend on the processing

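Of 558 values of the 9 members under an alternative, 522 kept their side of the threshold, 13 lost a call, 23 gained one and 0 reversed a called direction. The fall of Myc in CD45RBlo cells was called under every alternative run; in CD45RBhi cells it was lost only against a 1.5-fold change. The comparison of CD45RBhi with CD45RBlo depended most on the fit. In place of 17 genes and 0 members called, DESeq2 called 144 genes and 1 member. The replicate block over 8 memory libraries called 707 genes and 3 members; without pairs 1, 2, 3 and 4 in turn it called 344, 667, 167 and 300 genes and 1, 3, 2 and 1 members. With the block, limma called 758 genes and 2 members, the length and GC correction 797 and 2, and a 1.5-fold threshold 7 and 0. The memory libraries alone with no block gave 4 genes and 0 members, and the 1.5-fold threshold without a block 0 genes, beside 17 without that threshold. With 1 library left out, 6 to 15 genes and 0 to 1 members were called, the 1 being Myc without CD45RBlo 2 (0.93, adjusted p = 0.0275 by edgeR). With naive 1 and both memory libraries numbered 2 left out, chosen after seeing the data as was the block with a threshold, 1 member was called in CD45RBhi against CD45RBlo cells and 1 against naive cells. Against naive cells the 1.5-fold threshold gave 2441 genes and 0 members in CD45RBhi and 2612 genes and 1 member in CD45RBlo cells, and leaving out 1 library gave 1 to 3 members in CD45RBhi cells. The cause of these shifts was not tested, beyond fewer libraries or a stricter threshold.

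Naive and memory libraries of the same number shared only a number (r −0.101 to 0.0565). The replicate block over 11 libraries moved the members called in CD45RBhi cells to 3, by adding Mga (−0.47, adjusted p = 0.0229 by edgeR), and left 4 in CD45RBlo cells. Depth limited Mxd3, at 3 to 27 counts, and the spread among libraries limited Max. In 18 groups of 4 memory libraries, 0 had a member value that passed Dixon's test, at a gap of 0.829 of the range. With 4 libraries only an extreme gap passes. Max in CD45RBlo 2 reached 0.756, so the test does not show that this value lay near the rest. Naive libraries were not tested in this way.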
